A study of Homo sapiens with 20 samples.

Results

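Protein synthesis is carried out by ribosomes, each built of a large and a small subunit of ribosomal RNA and ribosomal proteins. Initiation factors (the EIF genes) bring the messenger RNA, the small subunit and the initiator tRNA together, and elongation factors (the EEF genes) deliver the following aminoacyl-tRNAs and move the ribosome along. The promoters of genes with these functions were examined for peaks of BMAL1, the circadian factor that pairs with CLOCK on E-boxes, and of HIF2α, the hypoxia-inducible factor that accumulates in clear cell renal cell carcinoma (ccRCC) and reads hypoxia response elements (HREs). The members were all GENCODE protein-coding genes on GRCh37 whose symbol begins with RPL, RPS, EIF or EEF, leaving out the RPS6K kinases, which gave 164 of 20155 genes. They comprised 46 large subunit ribosomal proteins, 31 small subunit ribosomal proteins, 44 initiation factor subunits, 7 elongation factors, 16 regulators such as kinases, methyltransferases and eIF4E-binding proteins, and 20 further genes that share a symbol prefix, among them paralogs and readthrough transcripts.

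A498 cells, an established ccRCC line, were profiled by CUT&RUN, in which a nuclease tethered to an antibody releases the DNA beside the bound protein. All cells had received a lentiviral shRNA in the PLKO.1 vector and puromycin selection, against BMAL1 (shBMAL1) or with a scrambled sequence (shCNT), and were maintained in DMEM with serum. The labels describe 20 libraries in 6 groups, with 4 libraries for each antibody and shRNA and 2 IgG libraries for each shRNA. The values below come from 4 peak lists, 1 for each pair of shRNA and antibody to BMAL1 or HIF2α, so they have no error between replicates, and the intervals given are 95% intervals that cover counting error only. No peak value tells whether the knockdown lowered BMAL1, and the BMAL1 list labelled shBMAL1 held more peaks (4261) than the one labelled shCNT (2350). The HIF2α lists held 2361 peaks under shCNT and 3199 under shBMAL1.

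A gene was counted as hit when the summit of a peak lay within 1 kb of a transcript start. For each peak the fold and p-value were solved for the pileup, which is how many fragments cover the summit. The lists differ in depth, since the background level of the genome was 0.168 fragments under shCNT and 0.0839 under shBMAL1 in the BMAL1 lists, and 0.209 and 0.109 in the HIF2α lists. Pileups of the shCNT and shBMAL1 lists are therefore also given as multiples of that level.

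The following sequences of the GRCh37 reference are shown because they lie within 100 bp of summits of the member peaks on which the results turn. Each is written 5′ to 3′ on the strand of the gene, and capitals mark E-boxes (CACGTG) and HRE cores (ACGTG or GCGTG, read on either strand, so that CACGT and CACGC are the same cores on the opposite strand). An E-box holds the HRE core on both strands and counts as 2 cores. The stretch before EIF4A3 carries cores at a spacing of a few bases and lay under the strongest HIF2α peaks of any member. EIF4E and EIF4A1 are shown for the E-boxes under their BMAL1 peaks, EIF5A, EIF3B and EEF1AKMT4 because they were hit in 3 lists, and EIF4H for a strong HIF2α peak listed only under shCNT. The EIF3B stretch surrounds its BMAL1 summit, and its HIF2α summits lie outside it. The first of the upstream EEF1AKMT4 E-boxes lies beyond the edge of the listed peak.
EIF4A3, upstream of the start, chr17:78120951-78121035, minus strand: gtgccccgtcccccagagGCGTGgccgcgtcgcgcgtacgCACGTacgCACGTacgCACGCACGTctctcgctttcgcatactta
EIF4A3, E-box upstream of the stretch above, chr17:78121033-78121058, minus strand: agttccctttCACGTGacgaagagtg
EIF4A1, upstream, chr17:7475839-7475864, plus strand: gtcgcctccgCACGTGtgagagtgca
EIF4E, upstream, chr4:99850477-99850577, minus strand: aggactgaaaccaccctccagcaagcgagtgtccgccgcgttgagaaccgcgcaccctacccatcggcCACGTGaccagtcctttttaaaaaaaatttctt
EIF5A, intron, chr17:7210445-7210545, plus strand: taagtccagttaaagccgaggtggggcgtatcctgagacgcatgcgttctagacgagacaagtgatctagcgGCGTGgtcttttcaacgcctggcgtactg
EIF3B, intron, chr7:2394369-2394461, plus strand: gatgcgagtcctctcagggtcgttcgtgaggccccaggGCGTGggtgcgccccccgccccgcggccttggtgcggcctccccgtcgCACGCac
EIF4H, intron, chr7:73589260-73589360, plus strand: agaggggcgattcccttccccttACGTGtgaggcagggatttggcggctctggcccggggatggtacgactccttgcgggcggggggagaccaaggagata
EEF1AKMT4, intron, chr3:183968251-183968351, plus strand: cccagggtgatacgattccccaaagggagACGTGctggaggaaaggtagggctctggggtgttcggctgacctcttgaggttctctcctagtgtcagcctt
EEF1AKMT4, E-boxes upstream, chr3:183967221-183967246 and chr3:183967353-183967378, plus strand: gtgatgagccCACGTGagtctgacac and acggaagttcCACGTGtttgtgttga

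The share of members with a promoter peak was above that of other genes in the BMAL1 list under shCNT and in the HIF2α list under shBMAL1, and in the other two lists the interval of its ratio included 1. Under shCNT, 19 of 164 members (11.6%, Wilson interval 7.54 to 17.4%) had a BMAL1 peak, where 5.90% of all protein-coding genes did. The share among the 19991 other genes was 5.86%, which made the members' share 1.98 times as high (interval 1.29 to 3.03). Under shBMAL1, 9 members (5.49%) had a BMAL1 peak against 7.80% of all protein-coding genes, a ratio to other genes of 0.702 (0.371 to 1.33). For HIF2α, 11 members (6.71%) were hit under shCNT against 5.42% of all protein-coding genes, with a ratio to other genes of 1.24 (0.699 to 2.20). Under shBMAL1, HIF2α peaks lay at 17 members (10.4%) against 5.75% of all protein-coding genes, with a ratio of 1.82 (1.15 to 2.86). The intervals treat genes as independent draws from 1 list each. Except in the shBMAL1 BMAL1 list, these calls depended on a setting. With only peaks of a −log10 p of at least 8, the shCNT BMAL1 ratio was 1.26 (0.608 to 2.61) with 7 members hit, while that of shCNT HIF2α was 1.99 (1.12 to 3.53), now above 1. With summits within 500 bp, the ratio was 1.62 (0.977 to 2.68) for shCNT BMAL1 and 1.56 (0.924 to 2.64) for shBMAL1 HIF2α. The latter was also 1.42 (0.902 to 2.23) with summits within 5 kb and 1.64 (0.956 to 2.82) without the regulators and the further genes.

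Over the 4 lists, 36 members (22.0%, 16.3 to 28.9%) had a promoter peak in at least 1 list, against 15.1% of all protein-coding genes, and 128 members had none. Of the 36, 24 were hit in 1 list, 5 in 2, 6 in 3 and 1 in all 4. Hits in 3 or 4 lists were found for 7 members (4.27%) and for 2.28% of other genes. The 7 include EEF1AKMT4 and its readthrough gene EEF1AKMT4-ECE2, which share the same peaks. Both are also counted separately among the 36 and in the shCNT BMAL1, shCNT HIF2α and shBMAL1 HIF2α lists.

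**Figure D1:**
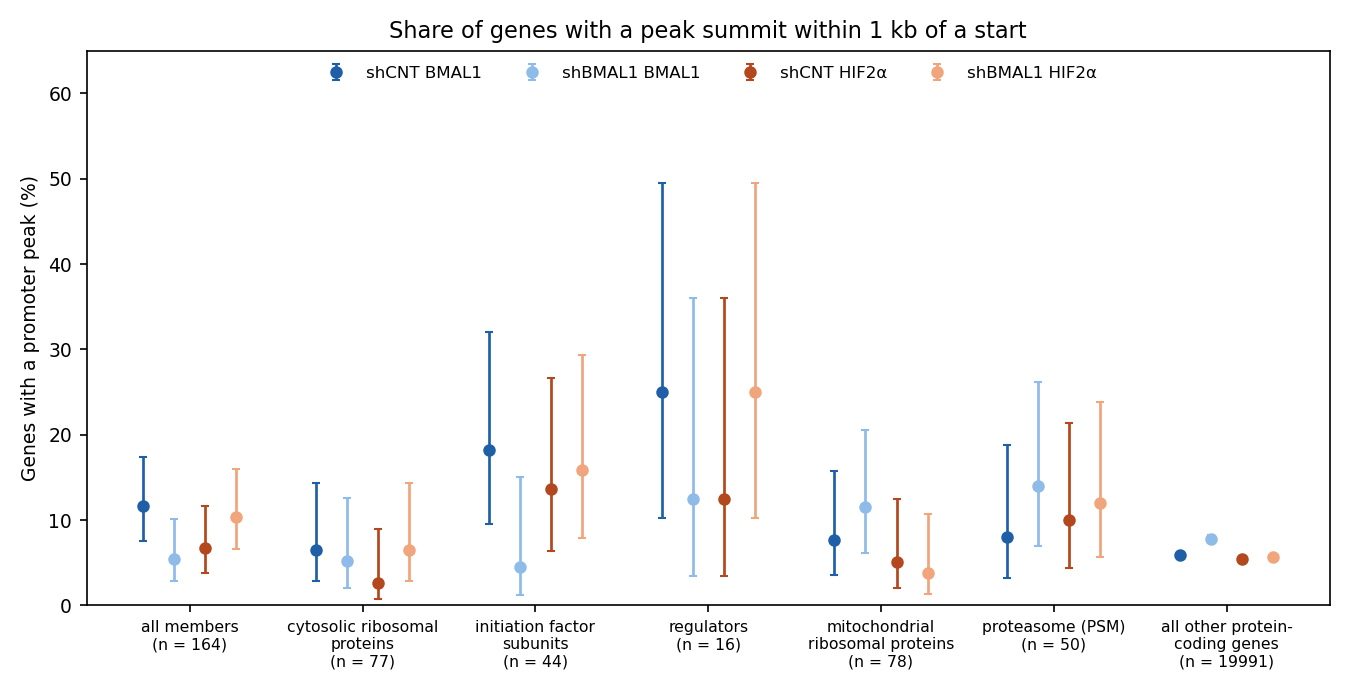
Share of genes (%) with a peak summit within 1 kb of a transcript start, by gene set and peak list; points are shares and bars are Wilson 95% intervals. Initiation factor subunits sit at 18.2, 4.55, 13.6 and 15.9%, cytosolic ribosomal proteins at 6.49, 5.19, 2.60 and 6.49%, and all other genes at 5.86, 7.82, 5.41 and 5.71% in the order of the legend.

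The ribosomal proteins themselves showed no difference from other genes that these counts could resolve. Of the 77 cytosolic ribosomal proteins, BMAL1 peaks lay at 5 (6.49%) under shCNT and 4 (5.19%) under shBMAL1, and HIF2α peaks at 2 (2.60%) and 5 (6.49%). The ratios to other genes were 1.11 (0.474 to 2.59), 0.664 (0.256 to 1.73), 0.480 (0.122 to 1.89) and 1.14 (0.487 to 2.66), so each interval included 1. Small subunit proteins had 2 hits under shCNT BMAL1, 1 under shBMAL1 BMAL1 (RPS16) and 0 of 31 in either HIF2α list, where the upper limit of the interval was 11.0%. No ribosomal protein was hit in more than 2 lists.

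The ribosomal protein peaks had pileups of 4 to 8. Over all peaks the median pileup was 6 and 5 in the BMAL1 lists under shCNT and shBMAL1, and 8 and 5 in the HIF2α lists. RPL18, a large subunit protein, was the 1 ribosomal protein with BMAL1 peaks under both shRNAs, with pileups of 5 under shCNT and 8 under shBMAL1. Its summits lay 187 and 176 bp upstream of its start, but only 77 and 66 bp from the start of the neighbouring gene SPHK2, so the peak cannot be given to either gene. RPL3, also of the large subunit, was the 1 with HIF2α peaks under both shRNAs, with pileups of 8 and 5 at overlapping peaks in an intron. The remaining ribosomal proteins were each hit in 1 list. RPL27 had a pileup of 7 under shCNT BMAL1, and RPL7 and RPS19 one of 5. Under shBMAL1 BMAL1, RPS16 had the strongest of the ribosomal protein peaks after RPL18, with a pileup of 6 at 152 bp upstream of the start, beside 5 at RPL36 and 4 at RPL23. In the shBMAL1 HIF2α list, RPL23A, RPL35, RPL19 and RPL14 had 6, 6, 5 and 4. The peaks at RPL36 and RPL35 were nearer to the starts of MICOS13 and ARPC5L than to their own.

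Genes listed as initiation factor subunits were hit more often than other genes in 3 of the 4 lists. Of the 44 subunits, 8 (18.2%) had a BMAL1 peak under shCNT, a ratio to other genes of 3.10 (1.65 to 5.82), and 2 (4.55%) under shBMAL1, a ratio of 0.581 (0.150 to 2.25). HIF2α peaks lay at 6 (13.6%) under shCNT and 7 (15.9%) under shBMAL1, with ratios of 2.52 (1.20 to 5.32) and 2.79 (1.41 to 5.51). Apart from shBMAL1 BMAL1, each interval lay above 1. The 44 genes include EIF4A3, a helicase of the exon junction complex, and EIF5A, which helps ribosomes through difficult peptide bonds. Both were among the 6 HIF2α hits under shCNT, and EIF5A was hit in both BMAL1 lists. Ratios without them were not computed, so the shCNT HIF2α ratio holds only for the set with both genes in it. The difference between initiation factors and ribosomal proteins was not tested. The split by role was laid down with earlier results of these data known.

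The subunits of eIF4 bind the cap of the messenger RNA and unwind its leader. The gene EIF4A3, which shares the EIF4 symbol, had the strongest HIF2α peaks of any member in both lists. EIF4A3, an RNA helicase of the exon junction complex that is closely related to eIF4A1, had HIF2α pileups of 43 (Poisson interval 31.1 to 57.9) under shCNT and 22 (13.8 to 33.3) under shBMAL1 and no BMAL1 peak. As multiples of the genome level these were 206 and 201, which differ by less than the counting error. The summits lay 35 and 38 bp upstream of the start, and the peaks ranked 32 of 2361 and 45 of 3199 by p-value. The 200 bp around either summit held 7 HRE cores, 5 of them in the printed stretch and 2 in the E-box. EIF4A1, the helicase of the cap-binding complex, had HIF2α pileups of 19 and 9, or 91.0 and 82.2 times the genome level. A BMAL1 peak with a pileup of 10 (4.80 to 18.4) was listed there under shCNT and none under shBMAL1.

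EIF4H, which stimulates the eIF4A helicase, had 2 HIF2α peaks under shCNT, with pileups of 27 (17.8 to 39.3) at 622 bp downstream and 21 (13.0 to 32.1) at 36 bp upstream of a start. No list labelled shBMAL1 held a promoter peak of EIF4H. At the depth of the shBMAL1 HIF2α list, equal multiples of the genome level would be pileups of 14.1 and 11.0, and the lowest pileup in that list was 3. Local background at the 2 shCNT peaks was 2.79 and 5.57 times the genome level, and their folds were 17.7 and 10.2. The part of depth and background in the missing peaks was not tested. EIF4E, the cap-binding protein, had 1 peak, for BMAL1 under shCNT, with a pileup of 7 (2.81 to 14.4). Its summit was 243 bp upstream of the start and 21 bp from the middle of the E-box shown above.

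The eIF3 complex, the scaffold that holds the small subunit during initiation, had BMAL1 hits at 3 and 0 of its 14 subunit genes under shCNT and shBMAL1, and HIF2α hits at 2 and 3. The shares were 21.4 and 0% for BMAL1 and 14.3 and 21.4% for HIF2α, beside 5.90, 7.80, 5.42 and 5.75% of all protein-coding genes. EIF3B, a core subunit, was hit in 3 lists, with a BMAL1 pileup of 6 under shCNT and HIF2α pileups of 8 and 10 under shCNT and shBMAL1. The HIF2α peaks overlapped each other, with summits 360 and 501 bp upstream of the nearest start, while the BMAL1 summit lay 43 bp upstream. No E-box or HRE core lay within 100 bp of either EIF3B HIF2α summit, and the cores printed above are those at the BMAL1 summit. EIF3D, a subunit that can bind the cap, had HIF2α pileups of 10 and 6, or 47.9 and 54.8 times the genome level, and no BMAL1 peak. EIF3E had a BMAL1 pileup of 9 under shCNT alone, 15 bp upstream of its start and 113 bp from the start of EMC2, and its window held 2 E-boxes. EIF3J, a loosely bound subunit, had a BMAL1 pileup of 5 under shCNT, and EIF3A an HIF2α pileup of 6 under shBMAL1.

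Of the other genes listed as initiation factors, EIF5A, which helps ribosomes through difficult peptide bonds, was the 1 with BMAL1 peaks under both shRNAs. Its pileups were 5 and 6 for BMAL1 under shCNT and shBMAL1 and 9 for HIF2α under shCNT, all within introns of the gene. EIF5B, the GTPase that joins the subunits, had a BMAL1 pileup of 10 under shCNT and HIF2α pileups of 6 and 4 at separate peaks under shBMAL1. The stronger EIF5B peaks lay 849 and 885 bp upstream of its start and 137 and 101 bp from the start of TXNDC9. EIF2S2, the beta subunit of eIF2, had a BMAL1 pileup of 5 under shCNT. It was the 1 hit among 8 eIF2 and eIF2B genes over all lists (12.5%, against 15.1% of all protein-coding genes). EIF5A2 had a BMAL1 pileup of 4 under shBMAL1, and EIF2A an HIF2α pileup of 3 under shBMAL1, the lowest of any member in that list.

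**Figure D2:**
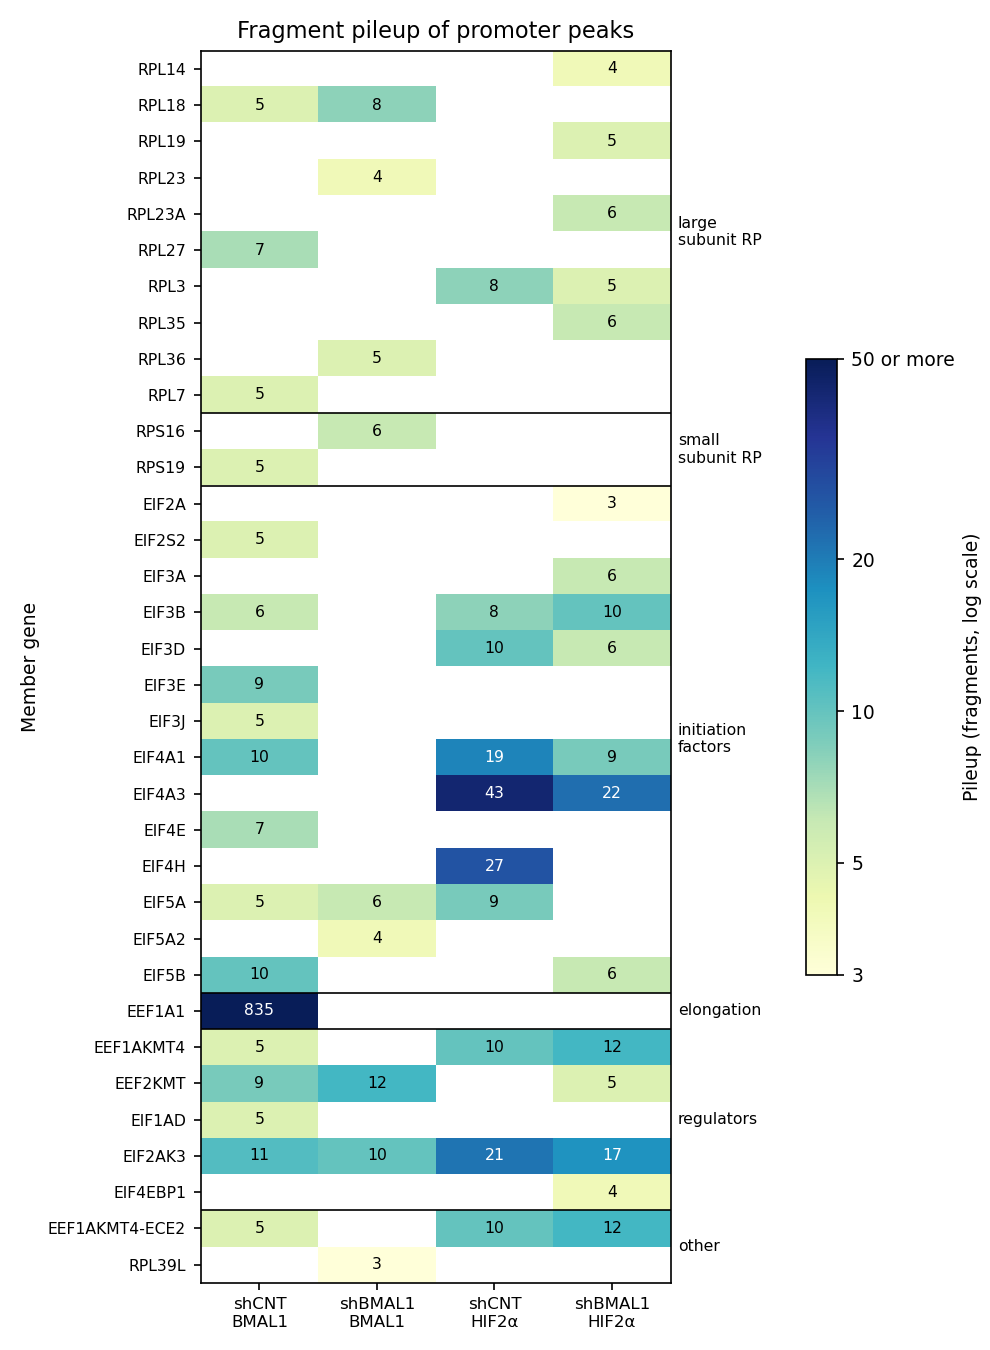
Fragment pileup at the summit of the strongest promoter peak of 34 of the 36 members with a peak, by role (lines separate roles) and peak list, with colour on a log scale and blank cells where no promoter peak was listed. EIF2AK3 has values in all 4 columns, the HIF2α pileups of EIF4A3 are 43 and 22, and most other cells lie between 3 and 12.

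Elongation factors had 1 hit among 7 genes over all lists (14.3%, against 15.1% of all protein-coding genes), and it stood apart. EEF1A1, the factor that delivers aminoacyl-tRNA, had a BMAL1 peak under shCNT at chr6:74229771-74230979, over an untranslated exon, with a pileup of 835 (779 to 894). The local background there was 117 fragments, 695 times the genome level, so the fold was 7.11 although the peak ranked 2 of 2350 by p-value. The next highest background at a member peak of that list was 5.28 times the genome level, at EEF2KMT. No peak was listed at the EEF1A1 promoter in the other lists. Without EEF1A1, 18 of 163 members had a shCNT BMAL1 peak, a ratio of 1.89 (1.22 to 2.92).

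**Figure D3:**
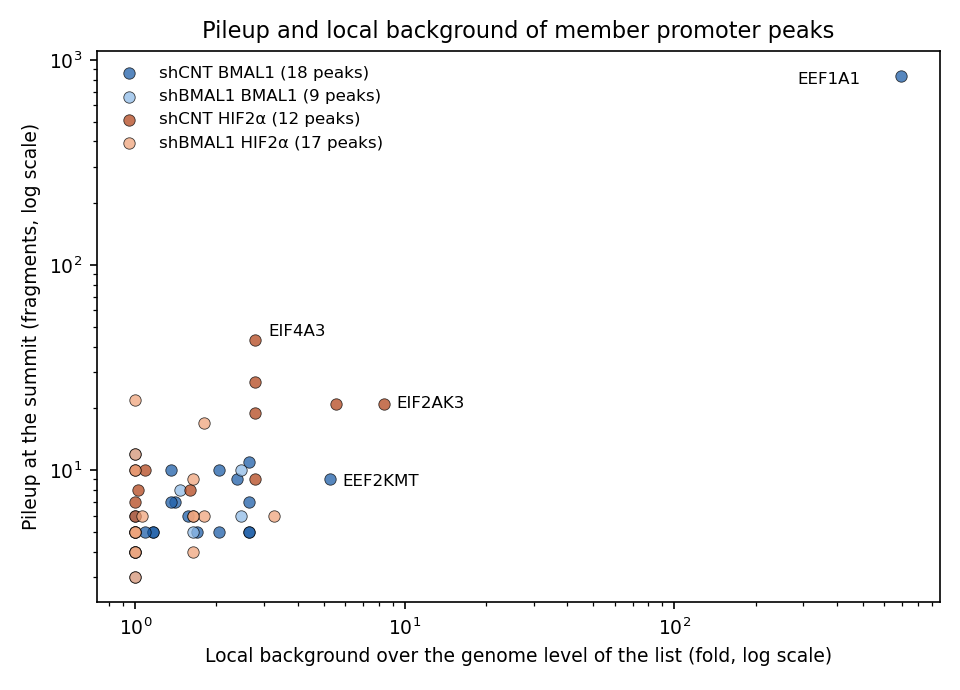
Pileup at the summit (fragments) against the local background as a multiple of the genome level of the list, both on log axes, for the 56 member promoter peaks of the 4 lists. EEF1A1 lies at 695 times the genome level with a pileup of 835, and every other peak is at or below 8.36 times and 43 fragments.

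The local background was raised at most shCNT BMAL1 member peaks. It exceeded the genome level at 17 of 18 peaks (94.4%), against 69.6% of the 1015 peaks at other promoters in that list. In the shBMAL1 BMAL1 list it did so at 4 of 9 (44.4%) against 63.7%, in shCNT HIF2α at 9 of 12 (75.0%) against 62.7% and in shBMAL1 HIF2α at 8 of 17 (47.1%) against 54.1%. The part of the raised background in the members' share of hits was not tested.

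The regulators had few genes and comparatively many hits. Of 16 genes, BMAL1 peaks lay at 4 under shCNT and 2 under shBMAL1, and HIF2α peaks at 2 and 4. The ratios to other genes were 4.27 (1.82 to 9.99), 1.60 (0.437 to 5.85), 2.31 (0.631 to 8.46) and 4.38 (1.87 to 10.3). EIF2AK3, the kinase PERK that phosphorylates eIF2 under endoplasmic reticulum stress, was the 1 member hit in all 4 lists. Its pileups were 11 (5.49 to 19.7) and 10 (4.80 to 18.4) for BMAL1 under shCNT and shBMAL1 and 21 (13.0 to 32.1) and 17 (9.90 to 27.2) for HIF2α. As multiples of the genome level these were 65.6 and 119 for BMAL1 and 101 and 155 for HIF2α. The 4 peaks shared 628 bp, at chr2:88927133-88927760, and their summits, all in an intron of the annotated gene, were spread over 351 bp. No E-box lay within 100 bp of any of these summits.

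EEF2KMT, the methyltransferase of elongation factor eEF2, was hit in 3 lists. Its BMAL1 pileups were 9 under shCNT and 12 under shBMAL1, or 53.7 and 143 times the genome level, at overlapping peaks with summits 435 and 448 bp upstream. Local background was 5.28 times the genome level under shCNT and at the genome level under shBMAL1. The HIF2α pileup there was 5 under shBMAL1. EEF1AKMT4, a methyltransferase of eEF1A, had an intronic BMAL1 pileup of 5 under shCNT and intronic HIF2α pileups of 10 and 12 under shCNT and shBMAL1. A further HIF2α peak under shCNT, with a pileup of 6, lay 142 bp upstream of the start and 10 bp from the start of ALG3. The readthrough gene EEF1AKMT4-ECE2 shares these peaks and is a second count of the same sites. EIF1AD had a BMAL1 pileup of 5 under shCNT, nearer to BANF1, and EIF4EBP1, an inhibitor of eIF4E, an HIF2α pileup of 4 under shBMAL1. Of the members outside these roles, RPL39L, a paralog of RPL39, had a BMAL1 pileup of 3 under shBMAL1.

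Member promoter peaks were also compared between the shRNAs. Of 18 BMAL1 peaks at member promoters under shCNT, 5 (27.8%, 12.5 to 50.9%) overlapped a BMAL1 peak under shBMAL1 by at least 1 bp, against 50.4% of 1015 at other promoters. The matched peaks were those of EEF2KMT, EIF2AK3, EIF5A, EIF5B and RPL18. The share at other promoters lay just inside the members' interval here and above it in 4 of 8 alternatives, with summits within 500 bp of a start (21.4%, 7.57 to 47.6%, against 51.1%), within 5 kb (25.0%, 11.2 to 46.9%, against 48.1%), and with a pileup of at least 5 or an overlap of 50% of the shorter peak (22.2%, 9.0 to 45.2%, against 46.1% in both). The shBMAL1 list had 0.50 times the genome level of the shCNT list, and for 6 of the 13 unmatched member peaks an equal multiple would fall under 3 fragments, the lowest pileup listed there. For HIF2α, 7 of 12 (58.3%, 32.0 to 80.7%) were matched, against 52.6% at other promoters. These were the peaks of EEF1AKMT4, EIF2AK3, EIF3B, EIF3D, EIF4A1, EIF4A3 and RPL3.

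By gene, 4 of the 19 members with a BMAL1 peak under shCNT also had one under shBMAL1 (21.1%, or 44.4% of the 9 hit under shBMAL1), and for HIF2α 8 of 11 did (72.7%, or 47.1% of 17). The 8, the 11 and the 17 each count EEF1AKMT4 and its readthrough gene separately. Among other genes the shares were 54.5% and 40.8% for BMAL1 and 55.9% and 52.9% for HIF2α. Of the 8 initiation factors with a BMAL1 hit in the list labelled shCNT, EIF5A alone had one in the list labelled shBMAL1, where EIF5A2 was hit as well. The EIF5B peak was overlapped there by a peak whose summit lay beyond 1 kb of the start. Among the 5 ribosomal proteins hit under shCNT, RPL18 alone was hit again.

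E-boxes lay under few member peaks. Within 100 bp of the summit they were found at 3 of 18 shCNT BMAL1 peaks (16.7%, 5.84 to 39.2%), those of EIF4A1, EIF4E and EIF3E, against 12.5% of other promoter peaks. None of the 3 was matched under shBMAL1, where 0 of 9 BMAL1 member peaks held an E-box (upper limit 29.9%) against 6.08% of other promoter peaks. In the HIF2α lists they lay at 3 of 12 (25.0%, 8.89 to 53.2%; EIF4A1, EIF4A3 and EEF1AKMT4) against 7.66% and at 2 of 17 (11.8%, 3.29 to 34.3%; EIF4A1 and EIF4A3) against 7.43%. The lower limit for shCNT HIF2α was above the share at other promoters, on 3 peaks. Of these, the EEF1AKMT4 peak lay nearer to the start of ALG3, which is no member, and the share without it was not computed. HRE cores were common at promoters of both kinds. They lay at 66.7% and 55.6% of BMAL1 member peaks under shCNT and shBMAL1, against 60.7% and 55.1% elsewhere, and at 91.7% and 64.7% of HIF2α member peaks, against 68.3% and 69.9%. The interval of the 91.7% was 64.6 to 98.5% and included the share elsewhere. With cores inside E-boxes left out, the shCNT HIF2α share was 75.0% (46.8 to 91.1%) at member peaks and 65.3% elsewhere.

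**Figure D4:**
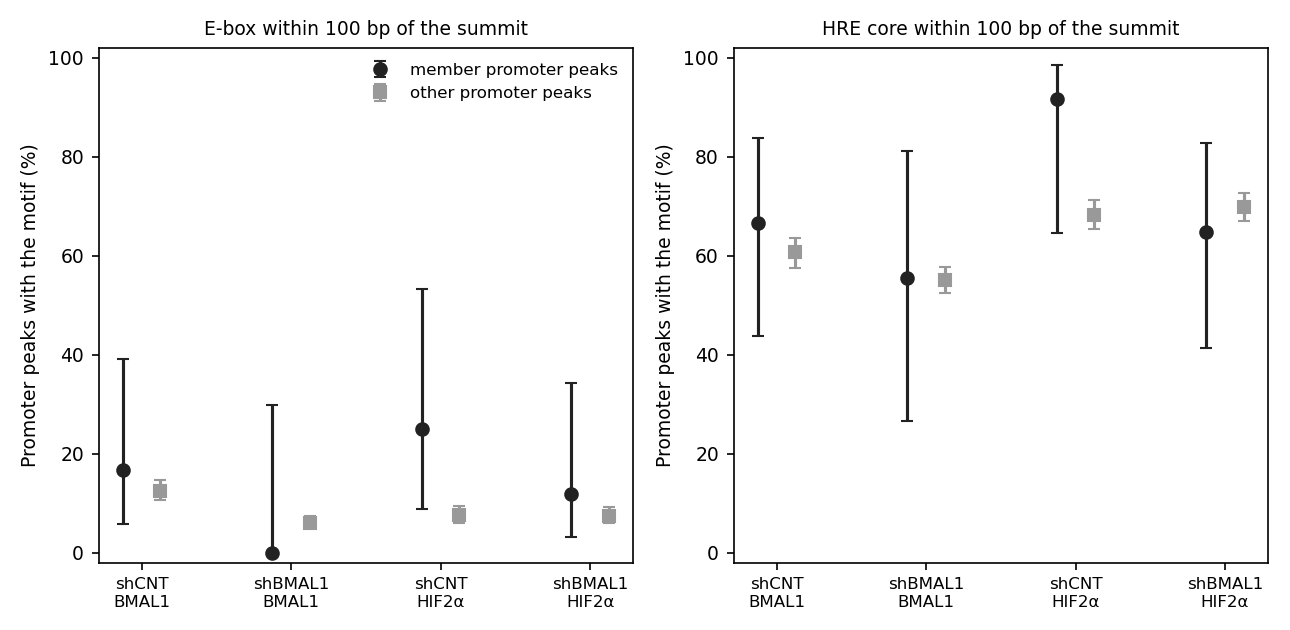
Share of promoter peaks (%) with an E-box (left) or an HRE core (right) within 100 bp of the summit, for member promoters (circles) and other promoters (squares) in the 4 lists, with Wilson 95% intervals. E-box shares at member promoters are 16.7, 0, 25.0 and 11.8%, and their intervals are wide because the lists hold 18, 9, 12 and 17 such peaks.

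Promoter sequence on its own also differed by role. In the 250 bases before to 50 after the canonical start, an E-box was present in 11 of 44 initiation factor genes (25.0%, 14.6 to 39.4%), in 5 of 77 ribosomal protein genes (6.49%, 2.81 to 14.3%) and in 8.69% of other genes. Among members with a peak in any list 10 of 36 (27.8%, 15.8 to 44.0%) had one, and among those without 14 of 128 (10.9%, 6.63 to 17.5%). EIF4G1, the scaffold of the cap-binding complex, had 2 E-boxes there and no peak. Of the 10 with a peak, EIF3A, RPL19, RPL23, EIF5A2, EIF4H and EIF4EBP1 had no E-box within 100 bp of any summit. EEF1AKMT4 and its readthrough gene, also among the 10, share their peaks. On either strand, the ETS motif CCGGAAG was present in 35.1% of ribosomal protein and 31.8% of initiation factor promoters against 13.9% of other genes, and the YY1 motif AAGATGG in 18.2% and 11.4% against 6.37%. In the 200 bp peak windows, which are shorter, the ETS motif lay at 1 of 18, 1 of 9, 0 of 12 and 2 of 17 member peaks and the YY1 motif at 1, 0, 1 and 2, in the order of shCNT and shBMAL1 for BMAL1 and then HIF2α. At other promoter peaks the shares in the same order were 10.9, 9.55, 9.04 and 9.24% for ETS and 3.35, 2.53, 2.34 and 3.11% for YY1. A match is only a description of the letters in the window.

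Member peaks lay mostly upstream of the gene or in an intron. Of the 56 member promoter peaks of the 4 lists, 33 had their summit upstream of the gene, 18 in an intron and 5 in an untranslated exon, and 8 were nearer to the start of a gene that is no member. The median distance from the start ran from 197 to 254 bp over the lists, against 153 to 168 bp for other genes. By p-value, the median percentile of member promoter peaks within their list for BMAL1 was 40.4 under shCNT and 52.4 under shBMAL1, beside 55.3 and 61.3 at other promoters, and for HIF2α it was 75.4 and 56.2, beside 46.5 and 52.1. Among the 12 shCNT HIF2α member peaks, 7 had a pileup of 10 or more (58.3%), against 29.3% at other promoters. Members had a median GC content of 54.7% in the 2 kb around the start and other genes 55.0%.

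Other genes of protein synthesis and other large complexes were set beside the members. Of 15 further translation factors and related genes, BMAL1 peaks lay at 2 under shCNT and 1 under shBMAL1, and HIF2α peaks at 2 and 2, with DENR, which helps to recycle the small subunit, reaching HIF2α pileups of 12 and 6. These came to 13.3, 6.67, 13.3 and 13.3% of the list, with ratios to other genes of 2.28, 0.853, 2.47 and 2.34. In the same order, 3, 2, 3 and 3 of 34 ribosome biogenesis genes were hit, with ratios of 1.51, 0.752, 1.63 and 1.55, and of 20 cytosolic tRNA synthetases 1, 1, 2 and 1, with ratios of 0.853, 0.639, 1.85 and 0.876. Mitochondrial ribosomal proteins, the closest family by name, had hits at 6, 9, 4 and 3 of 78 genes, with ratios to other genes of 1.31, 1.48, 0.948 and 0.673. The proteasome genes had 4, 7, 5 and 6 of 50, with ratios of 1.37, 1.79, 1.85 and 2.11 (0.993 to 4.48 for the last). These were above the ratios of the members in every list except shCNT BMAL1. Over the 4 lists 28.0% of the proteasome genes had a hit, beside 22.0% of the members. The NDUF genes, most of them of respiratory complex I, had 3, 2, 2 and 1 of 48, with ratios of 1.07, 0.532, 0.770 and 0.364. For each of these lists and families the interval of every ratio included 1.

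**Figure D5:**
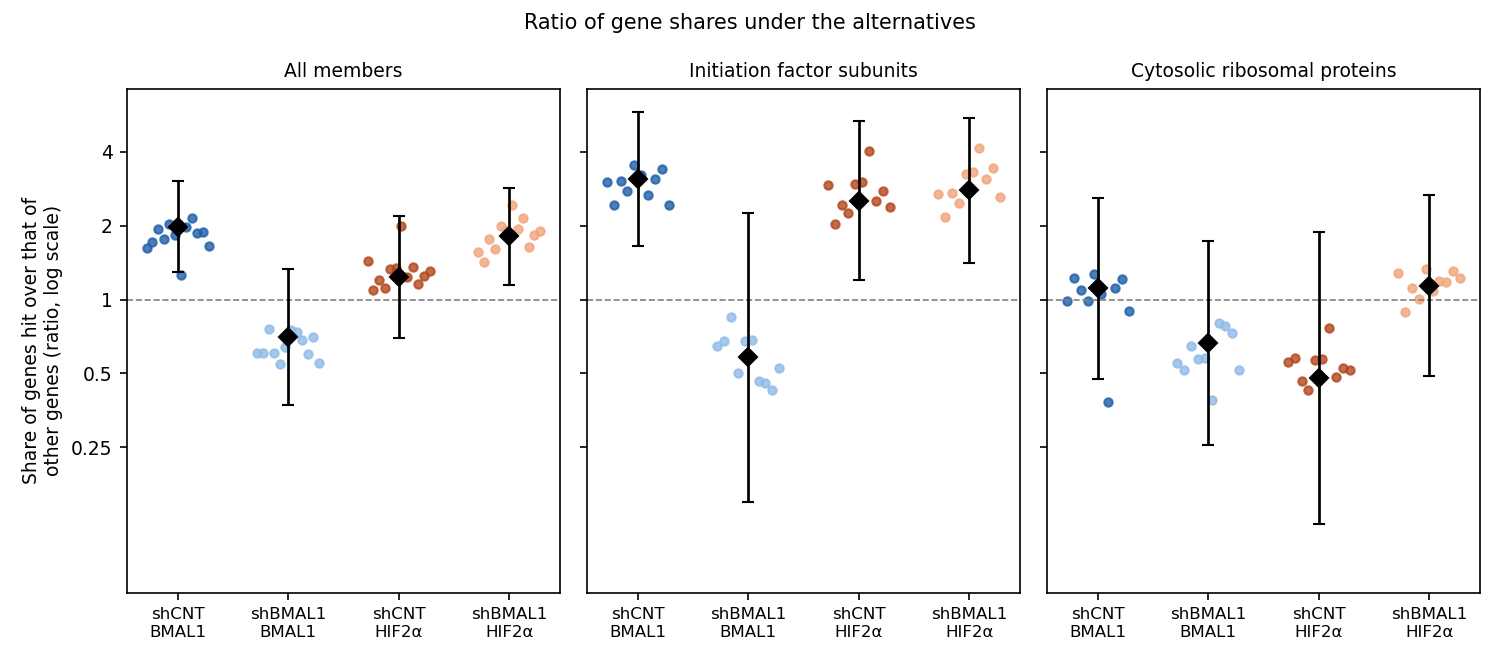
Ratio of the share of genes hit to that of other genes (log axis) for all members, initiation factor subunits and cytosolic ribosomal proteins in the 4 lists; diamonds are the reported values with 95% intervals and coloured points the alternatives in processing. All points of the initiation factors lie above 1 except in shBMAL1 BMAL1, and those of all members run from 1.26 to 2.16 in shCNT BMAL1.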

How the data were processed

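The CUT&RUN peak lists of A498 cells took their group from the shRNA and antibody named in each title. Per the submitters' processing notes, Bowtie2 2.5.3, SAMtools 1.6, MACS2 2.2.9.1 and bedtools 2.31.1 were used with the hg19 build. The authors called peaks at a p-value limit of 1e-05. Pooling of replicates and the control used are not given in the sources used here. The lists of 1 shRNA may share a control, so BMAL1 and HIF2α values are set side by side.

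The deposited fold of a peak was read as a linear ratio of summit pileup to local background, with 1 added to each. It is therefore below the plain ratio where the background is low. The deposited p-value and q-value are written as −log10. A whole-number pileup and the background were solved from fold and p. A promoter peak had its summit no more than 1 kb from the start of a transcript that GENCODE (release 44, GRCh37 mapping) tags as basic. Shares carry Wilson intervals, pileups exact Poisson intervals and ratios of shares intervals on the log scale, all covering counting error only. No p-value was computed, since each group has 1 list. IgG libraries and the signal of single libraries were not analysed here. Assignment, decoding and overlap were checked on simulated data. Alternatives changed the distance, starts, peak strength, list length, member list and GC content.

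Members and gene lists were chosen with earlier results of these data known. Genes were named when hit in at least 3 lists, among the 5 strongest members of a list, or with an E-box under the summit, and EEF1A1 apart. Other members with a peak were listed for completeness after their values were seen. The peaks of 2 members count in every share but are not reported here singly. A listed regulator, EEF1AKNMT, was not matched in the annotation. Python 3.11.15, numpy 2.4.6, scipy 1.17.1 and pysam 0.24.0 were used.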

Additional observations from a re-analysis of the deposited data

Results flagged for a closer look

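The members' share of hit genes moved in opposite directions with the shRNA for the 2 antibodies. For BMAL1 the difference, shBMAL1 minus shCNT, was -6.10 percentage points (from 11.6 to 5.49%), and for HIF2α it was 3.66 percentage points (from 6.71 to 10.4%). The difference between the 2 contrasts was not tested, because each group has 1 list. For each antibody the intervals of the shRNAs overlapped (7.54 to 17.4% and 2.91 to 10.1% for BMAL1, 3.79 to 11.6% and 6.57 to 16.0% for HIF2α). Among other genes both shares were higher under shBMAL1, at 7.82 against 5.86% for BMAL1 and 5.71 against 5.41% for HIF2α.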

How the results depend on the processing

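Some alternatives were bound to leave a value unchanged or nearly so. Lists cut to equal length kept all 2350 peaks of shCNT BMAL1, and EEF1A1 had a peak in that list only. The counts below include such alternatives. Of 144 values computed under the alternatives, 142 lay within the interval of the reported value and 2 outside it. Both came from counting only peaks with a −log10 p of at least 8 in the shCNT BMAL1 list, where the ratio for all members was 1.26 instead of 1.98 and that for cytosolic ribosomal proteins 0.383 instead of 1.11, the latter on 1 gene; the cause was not tested. The ratio for all members ran from 1.26 to 2.16 in shCNT BMAL1, 0.544 to 0.761 in shBMAL1 BMAL1, 1.09 to 1.99 in shCNT HIF2α and 1.42 to 2.42 in shBMAL1 HIF2α, and its interval stayed above 1 in 10, 0, 1 and 9 of 12 alternatives. For initiation factor subunits, a set of alternatives chosen after seeing the data, the interval stayed above 1 in 10, 0, 9 and 10 of 10, the exception in shCNT HIF2α being summits within 5 kb (2.03, 0.963 to 4.28). The share of matched BMAL1 member peaks ran from 14.3 to 29.4%, and that of HIF2α over a narrower range. No paired analysis was possible because the peak lists used here number 1 per group and carry no values per replicate, which also left no replicate to leave out, and single libraries were not analysed here.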
